A study of Mus musculus with 22 samples.

Results

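The 10 genes described here encode heat shock chaperones of the cytosol and the mitochondria: Hspa1a, Hspa1b, Hspa8, Hspb1, Hspb8, Dnajb1, Hsph1, Hsp90aa1, Hspd1 and Bag3. They were taken by name, through the probe sets annotated to a single one of them, out of 12393 genes with such a probe set. All 10 were measured, by 22 probe sets, and each gene is represented by the probe set with the highest mean over all 22 samples. The samples were loose subcutaneous connective tissue, taken from the trunk of C57BL/6 mice (males, 19 to 24 g). Static stretch was set against shortening within each animal, with randomized assignment, so both tissue positions come from the same mice. The 4 groups were ex vivo stretched tissue (4 animals), ex vivo shortened tissue (the same 4 animals), in vivo stretched tissue (7 animals) and in vivo shortened tissue (the same 7 animals). The mice of the ex vivo and in vivo settings differed, and no other genotype or agent is given for any group. Force, extension and holding time, age, and the delay before RNA extraction are not stated in the sources used here, so the ex vivo groups differ from the in vivo groups in everything that removal of the tissue entails.

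Heat shock chaperones bind unfolded stretches of other proteins, hold them and help them refold, or pass them on for degradation. The HSP70 proteins do this in an ATP-driven cycle that J-domain proteins start and nucleotide exchange factors reset, HSP90 acts on later folding intermediates, small heat shock proteins hold unfolding proteins without ATP, and the chaperonin HSP60 folds proteins inside mitochondria. In stressed cells heat shock factor 1 binds repeated units of the letters GAA and TTC before many of these genes and raises their transcription. BAG3 joins HSP70 to the small heat shock protein HSPB8 in a pathway known from muscle and other mechanically strained cells, where it clears damaged filamin.

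Values were deposited log2 signals. The median of a sample lay between 6.85 and 6.90 ex vivo and between 7.28 and 7.41 in vivo, so the settings had different distributions, and comparisons between settings use values minus the sample's own median (relative log2 signal). The mean log2 signal of 11 fibroblast markers was 10.9 to 11.5 ex vivo and 12.3 to 12.8 in vivo. The mean of 21 skeletal muscle markers, called muscle content below, was 5.09 to 11.0 in ex vivo stretched, 5.22 to 5.99 in ex vivo shortened, 5.38 to 11.9 in in vivo stretched and 5.42 to 11.5 in in vivo shortened tissue. The difference between the 3' and 5' control probes of Gapdh, which grows as RNA is degraded, was 0.0497 to 0.912 ex vivo, 0.111 to 0.272 in in vivo animals 1 to 3 and 0.866 to 3.61 in in vivo animals 4 to 7. Setting, array batch and animals cannot be told apart, and in tissue of mixed cell types fewer cells of a type and less RNA per cell cannot be told apart either.

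Ex vivo tissue had higher signals than in vivo tissue for 9 of the 10 chaperones, in stretched and in shortened pieces alike. The inducible HSP70 genes Hspa1a and Hspa1b stood 9.85-fold to 12.9-fold higher, and Hsph1, Hspb1 and Hsp90aa1 2.80-fold to 4.00-fold. Dnajb1, Hspd1, Hspa8 and Bag3 stood 1.40-fold to 1.80-fold higher. These sizes are those of the brightest probe sets, and other probe sets of Dnajb1 and Hspa8 differed by more. Hspb8 was the exception, with a lower value on its brightest probe set. With limma and Benjamini-Hochberg adjustment over 22626 probe sets, 9 members were called higher and 1 lower in shortened tissue at an adjusted p under 0.05, where 66.5% of all probe sets were called, 36.9% higher and 29.6% lower. In stretched tissue 9 members were called higher and 0 lower, where 63.5% were called, 35.1% higher and 28.4% lower. The median difference of the 10 members was 1.30 in shortened and 1.12 in stretched tissue on the log2 scale, against -0.01 and -0.02 over all genes. After centring, the ranges of the ex vivo and in vivo samples did not overlap for 9 members, higher ex vivo, in either position of the tissue, as for 29.4% of all probe sets in shortened and 26.1% in stretched tissue. As deposited, the stretched ranges of Hspa8, Dnajb1, Hsph1, Hspd1 and Bag3 overlapped, and so did the shortened ranges of all of these but Hsph1.

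**Figure D1:**
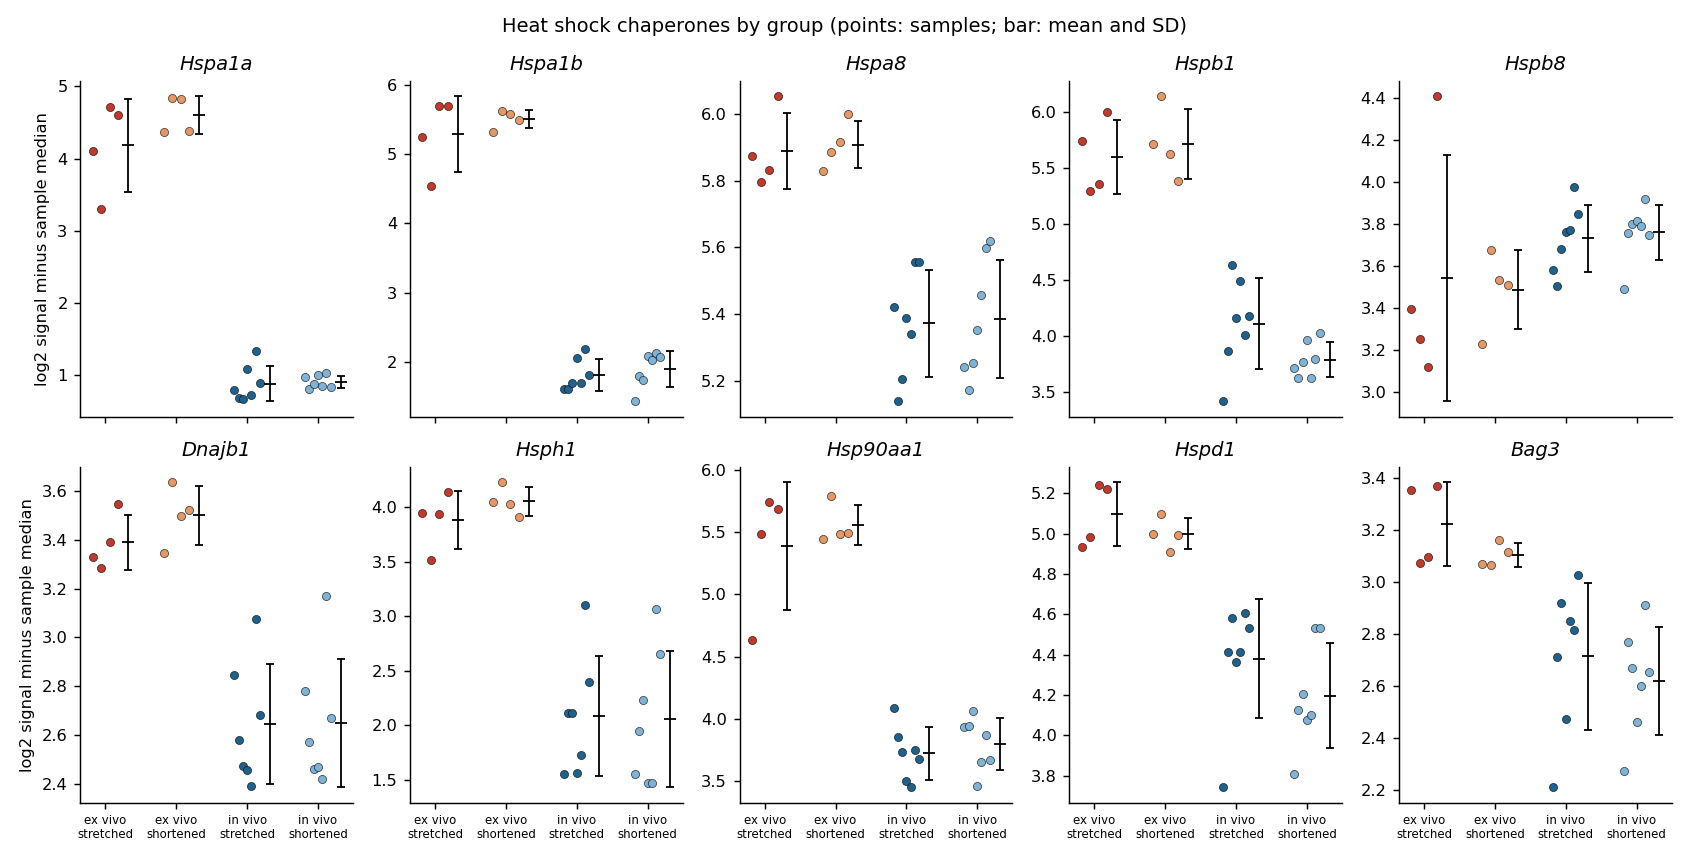
Relative log2 signal (log2 signal minus the sample's median, vertical axes) of the 10 chaperones in the 4 groups, with a point per sample and a black bar for the mean and SD (n = 4 ex vivo, n = 7 in vivo). For 9 genes every ex vivo point lies above every in vivo point of the same tissue position, while the Hspb8 points overlap and 1 ex vivo stretched sample stands at 4.41.

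Hspa1a and Hspa1b encode the stress-inducible HSP70 of the cytosol, from neighbouring genes on chromosome 17. The relative log2 signal of Hspa1a was 4.10, 3.31, 4.72 and 4.60 in ex vivo stretched tissue of animals 1 to 4, against 0.66 to 1.33 with a median of 0.80 in in vivo stretched tissue. In shortened tissue it was 4.37, 4.84, 4.82 and 4.38 ex vivo, against 0.80 to 1.02 with a median of 0.88 in vivo. The gap between the settings was thus wider than the spread inside any group, and the lowest ex vivo value belonged to the stretched piece of animal 2. The differences were 3.30 ± 0.23 in stretched (SE, adjusted p = 1.14e-07) and 3.69 ± 0.11 in shortened tissue (adjusted p = 3.94e-11). Hspa1b showed the same order, with 5.25, 4.54, 5.69 and 5.69 in ex vivo stretched tissue, against 1.60 to 2.18 with a median of 1.70 in in vivo stretched tissue. Its shortened pieces gave 5.33, 5.63, 5.59 and 5.49 ex vivo, against 1.43 to 2.13 with a median of 2.03 in vivo. The differences of Hspa1b were 3.48 ± 0.20 in stretched and 3.61 ± 0.13 in shortened tissue (adjusted p = 2.13e-08 and 1.92e-10). The coding regions of this pair are nearly identical, so probe sets named for either may bind the transcripts of both, and the values cannot be assigned to a single copy.

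Promoter windows of RefSeq (GRCm38.p6, from 250 bases before to 50 bases after a transcript start) were searched for heat shock element units, since 9 of the 10 members were higher ex vivo after centring. Windows were found for 8 of the 10 members, 11 in all, and none was given for Hspa8 or Hsp90aa1. Paired units, GAANNTTC or TTCNNGAA, which read the same on both strands, occurred in 8 of the 11 windows (72.7%), against 4946 of 32851 windows of all genes (15.1%). Runs of 3 units, GAANNTTCNNGAA or TTCNNGAANNTTC, which contain the paired form, occurred on either strand in 3 of the 11 windows (27.3%), against 0.603% of all windows. These counts hold dependent windows: 2 of the 3 are Hsph1 windows that overlap and hold the same element, the third is from Hspd1, and the paired count holds both Hsph1 windows and the near-identical pair of Hspa1a and Hspa1b. Many heat shock genes are known to carry these units, and the members were taken by name as heat shock chaperones. The shares were thus partly set by the choice of genes and are a description, not a test. Paired units lay in at least 1 window of 7 of the 8 genes, Hspb8 among them and Dnajb1 the exception. In 5 genes they lay upstream of the transcript start of at least 1 window. Another window of Hspd1, at chr1:55088194-55088493, held no match. The Hspd1 and Hsph1 stretches lie inside the annotated genes, which begin on the minus strand at 55088243 and 149636498. They are upstream only of transcript starts further inside these genes. The stretches around these upstream matches are shown 5′ to 3′ on the gene's strand, with the matched letters in capitals. They are chr17:34972233-34972280 (minus strand) for Hspa1a, chr17:34959315-34959362 (minus) for Hspa1b, chr5:135887782-135887849 (plus) for Hspb1, chr5:149636342-149636389 (minus) for Hsph1 and chr1:55088039-55088096 (minus) for Hspd1.
Hspa1a: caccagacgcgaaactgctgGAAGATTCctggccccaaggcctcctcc
Hspa1b: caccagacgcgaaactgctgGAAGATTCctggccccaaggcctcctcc
Hspb1: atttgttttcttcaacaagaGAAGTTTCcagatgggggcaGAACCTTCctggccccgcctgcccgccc
Hsph1: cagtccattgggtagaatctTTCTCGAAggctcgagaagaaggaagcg
Hspd1: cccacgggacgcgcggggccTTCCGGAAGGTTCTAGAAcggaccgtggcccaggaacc
The Hspa1a and Hspa1b stretches are the same, and their whole windows are identical at 296 of 300 bases (98.7%). A match describes letters in the window and does not show that a factor binds there.

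Among the partners of HSP70, the exchange factor Hsph1 had the widest difference between the settings. Its relative log2 signal was 3.95, 3.51, 3.94 and 4.14 in ex vivo stretched tissue, against 1.55 to 3.11 with a median of 2.11 in in vivo stretched tissue. In shortened tissue it was 4.05, 4.23, 4.03 and 3.91 ex vivo, against 1.47 to 3.07 with a median of 1.95 in vivo. In vivo tissue varied widely between animals, but after centring its highest sample still lay below the lowest ex vivo one. The differences were 1.80 ± 0.26 in stretched and 2.00 ± 0.28 in shortened tissue (adjusted p = 5.99e-05 and 3.70e-05). Its promoter stretch, given above, holds a paired unit close to the transcript starts of its windows, which lie inside the annotated gene.

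Dnajb1, the J-domain protein that delivers substrates to HSP70 and starts its ATP cycle, differed less on the probe set used here. It stood at 3.33, 3.29, 3.39 and 3.55 in ex vivo stretched tissue, against 2.39 to 3.08 with a median of 2.58 in in vivo stretched tissue. Its shortened pieces gave 3.35, 3.64, 3.50 and 3.52 ex vivo, against 2.42 to 3.17 with a median of 2.57 in vivo. The nearest samples of the 2 settings were 3.29 and 3.08 in stretched tissue, so after centring the groups were separate but close. The differences were 0.75 ± 0.13 and 0.85 ± 0.13 in stretched and shortened tissue (adjusted p = 0.000251 and 8.70e-05). The other probe set of Dnajb1 gave larger differences, 1.37 ± 0.21 in stretched and 1.95 ± 0.20 in shortened tissue.

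Hspa8, the HSP70 that cells make without stress, had a small difference relative to the sample median. It stood at 5.87, 5.80, 5.83 and 6.05 in ex vivo stretched tissue, against 5.14 to 5.56 with a median of 5.39 in in vivo stretched tissue. In shortened tissue it was 5.83, 5.89, 5.92 and 6.00 ex vivo, against 5.17 to 5.62 with a median of 5.35 in vivo. The differences were 0.52 ± 0.09 in each (adjusted p = 0.000294 in stretched and 0.000197 in shortened tissue). Bag3, the co-chaperone that directs HSP70 clients to autophagy, differed by 0.51 ± 0.15 in stretched and 0.48 ± 0.11 in shortened tissue (adjusted p = 0.00860 and 0.00143). Its values were 3.35, 3.07, 3.10 and 3.37 in ex vivo stretched tissue, against 2.21 to 3.03 with a median of 2.81 in in vivo stretched tissue. In ex vivo shortened tissue they were 3.07, 3.07, 3.16 and 3.12, against 2.27 to 2.91 with a median of 2.65 in in vivo shortened tissue. On the probe sets used here both calls rest on the scaling: on the values as deposited, without centring, Hspa8 differed by 0.07 and 0.06 in stretched and shortened tissue (adjusted p = 0.415 and 0.473) and Bag3 by 0.06 and 0.02 (adjusted p = 0.715 and 0.858). Other probe sets of Hspa8 differed by 0.66, 1.93 and 3.39 in shortened tissue after centring, and no fit of them was made as deposited. Sample medians differed by -0.43 between the settings, a shift much smaller than the differences of 1.93 and 3.39.

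Hsp90aa1, the inducible HSP90 of the cytosol, was higher ex vivo in every sample. Its relative log2 signal was 4.63, 5.49, 5.74 and 5.69 in ex vivo stretched tissue, against 3.45 to 4.09 with a median of 3.74 in in vivo stretched tissue. In shortened tissue it was 5.45, 5.79, 5.49 and 5.49 ex vivo, against 3.46 to 4.07 with a median of 3.87 in vivo. The stretched piece of ex vivo animal 1 was the lowest of the 8 ex vivo pieces, and above all 14 in vivo ones. The differences were 1.66 ± 0.19 in stretched and 1.76 ± 0.11 in shortened tissue (adjusted p = 8.39e-06 and 3.17e-08). Hspd1, the mitochondrial chaperonin HSP60, stood at 4.94, 4.99, 5.24 and 5.22 in ex vivo stretched tissue, against 3.74 to 4.61 with a median of 4.41 in in vivo stretched tissue. Its shortened pieces gave 5.00, 5.10, 4.91 and 4.99 ex vivo, against 3.81 to 4.53 with a median of 4.12 in vivo. The differences of Hspd1 were 0.72 ± 0.15 and 0.80 ± 0.12 in stretched and shortened tissue (adjusted p = 0.000925 and 8.56e-05). On the values as deposited the stretched difference of Hspd1 was 0.27 (adjusted p = 0.123).

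The small heat shock proteins did not move alike. Hspb1, a small heat shock protein that also binds actin filaments, was at 5.74, 5.30, 5.36 and 6.00 in ex vivo stretched tissue, against 3.42 to 4.64 with a median of 4.17 in in vivo stretched tissue. In shortened tissue it was 5.72, 6.14, 5.63 and 5.39 ex vivo, against 3.62 to 4.03 with a median of 3.77 in vivo. The differences were 1.49 ± 0.21 in stretched and 1.93 ± 0.13 in shortened tissue (adjusted p = 4.89e-05 and 3.70e-08). Hspb8, the partner of BAG3, was at 3.39, 3.25, 3.12 and 4.41 in ex vivo stretched tissue, against 3.50 to 3.98 with a median of 3.76 in in vivo stretched tissue. Its shortened pieces gave 3.23, 3.68, 3.54 and 3.51 ex vivo, against 3.49 to 3.92 with a median of 3.79 in vivo. In stretched tissue 3 ex vivo samples lay below all in vivo ones and that of animal 4 above all of them, and in shortened tissue the ranges overlapped. The differences were -0.19 ± 0.20 in stretched (adjusted p = 0.432) and -0.27 ± 0.10 in shortened tissue (adjusted p = 0.0222). Without the stretched piece of ex vivo animal 4 the stretched difference was -0.48 (adjusted p = 0.00322), and without the shortened piece of ex vivo animal 1 the shortened difference was -0.19 (adjusted p = 0.0910). The ex vivo stretched piece of animal 4 had a muscle content of 11.0 and that of animal 3, the lowest in Hspb8, of 9.73.

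**Figure D2:**
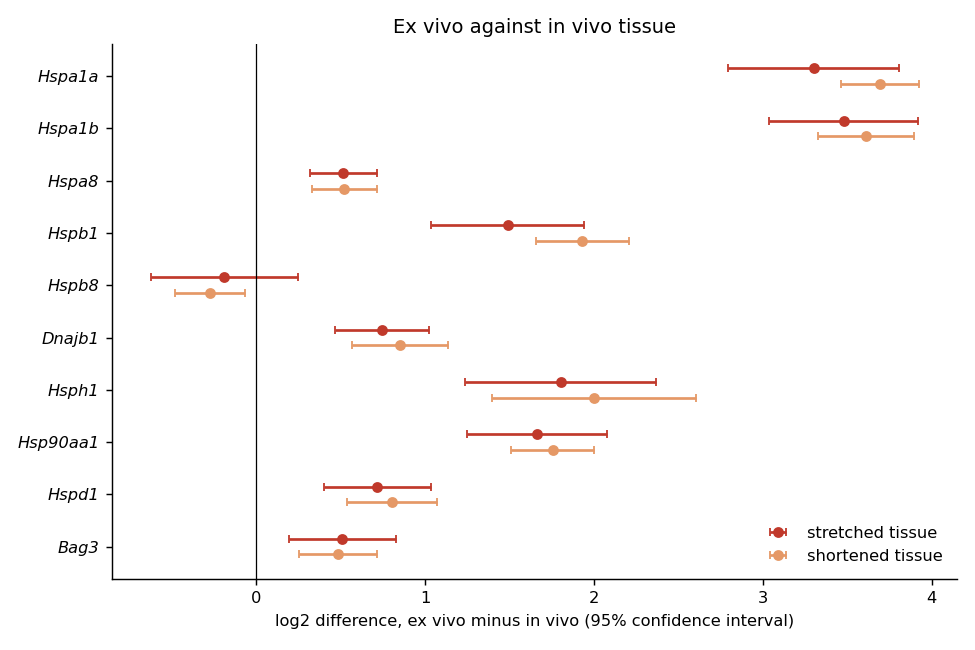
Log2 difference between ex vivo and in vivo tissue (ex vivo minus in vivo, relative to sample medians, horizontal axis) for the 10 chaperones, in stretched (red) and shortened (orange) tissue, with 95% confidence intervals of the limma fit (n = 4 against 7). The intervals of 9 genes lie right of 0 in both positions of the tissue, and that of Hspb8 includes 0 in stretched tissue.

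The largest differences between settings kept their direction and their calls when the Gapdh control difference was accounted for. The same 3' and 5' difference for the Actb control probes was not used in a fit. In shortened tissue it was 0.738 to 0.976 ex vivo, 0.333 to 0.372 in in vivo animals 1 to 3 and 1.36 to 1.78 in in vivo animals 4 to 7. RNA quality was thus accounted for only as far as the Gapdh measure shows it. With the Gapdh control difference of each sample as a covariate, shortened Hspa1a differed by 3.71, Hspa1b by 3.85, Hsph1 by 2.09, Hspb1 by 2.02 and Hsp90aa1 by 1.56. Against only in vivo animals 1 to 3, whose Gapdh difference resembled that of ex vivo tissue, they differed by 3.72, 3.86, 2.15, 2.02 and 1.57 in the same order. Hspb8 lost its call there (-0.20, adjusted p = 0.170), with the Gapdh covariate (-0.21, adjusted p = 0.105), with muscle content as a covariate (-0.24, adjusted p = 0.0849) and with the number in the title as a block (-0.23, adjusted p = 0.0580). Other scalings gave larger differences of Hspb8: as deposited it was -0.63 in stretched (adjusted p = 0.0126) and -0.73 in shortened tissue (adjusted p = 8.98e-06), and with quantile normalization -0.27 (adjusted p = 0.214) and -0.38 (adjusted p = 0.00170). As deposited, the differences of Hspa1a, Hspa1b, Hsph1, Hspb1, Hsp90aa1 and Dnajb1 in shortened tissue kept their calls at 3.23, 3.15, 1.54, 1.47, 1.29 and 0.39. The choice of scale moved all probe sets: 55.5% of shortened calls were higher ex vivo with centring, 48.7% with quantile normalization and 23.8% as deposited, where the median of all probe sets was -0.38. Sample medians differed by -0.43 between the settings, so a difference as deposited was lower than the centred one by about that much for every gene.

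Markers of cell types moved with the setting too. Of 7 macrophage markers 6 were called lower in ex vivo shortened tissue (list mean 8.24 to 9.12, against 11.5 to 11.8 in vivo) and 6 lower in ex vivo stretched tissue (7.70 to 9.07, against 11.3 to 11.7 in vivo). Of 11 fibroblast markers 9 were called lower ex vivo in each position, of 6 adipocyte markers 4, and of 5 lymphocyte markers 5. Of 21 skeletal muscle markers 3 were called lower in shortened and 1 in stretched tissue. In shortened tissue 3 of 4 neutrophil and 3 of 6 blood endothelial markers were called higher ex vivo, and 1 blood endothelial marker lower. In stretched tissue 1 marker of each of these 2 lists was called higher and 1 lower. Of the fibroblast markers 1 was called higher in each position, and of the macrophage markers 1 in stretched tissue. Over all probe sets 36.9% were called higher and 29.6% lower in shortened tissue, and 35.1% and 28.4% in stretched tissue. The part of these shifts in the chaperone values was not tested.

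Other probe sets of the same genes gave the same direction for 6 of the 7 genes that have several, and sizes that varied. Hspa1b differed by 3.29 ± 0.11 and 3.33 ± 0.17 on its other probe sets in shortened tissue, Hspb1 by 1.97 ± 0.13, and Hsp90aa1 by 1.86 ± 0.07 and 1.52 ± 0.13. Dnajb1 differed by 1.95 ± 0.20 on its other probe set and Hsph1 by 2.61 ± 0.29. The probe sets of Hspa8 disagreed in size, with 0.66 ± 0.08, 1.93 ± 0.09 and 3.39 ± 0.24 beside the 0.52 of the one used above. Those of Hspb8 disagreed in sign, with 0.00 ± 0.36 (adjusted p = 0.991) and 1.05 ± 0.11 (adjusted p = 1.95e-06) beside -0.27. Which transcripts these probe sets bind was not tested, so no single direction can be given for Hspb8.

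**Figure D3:**
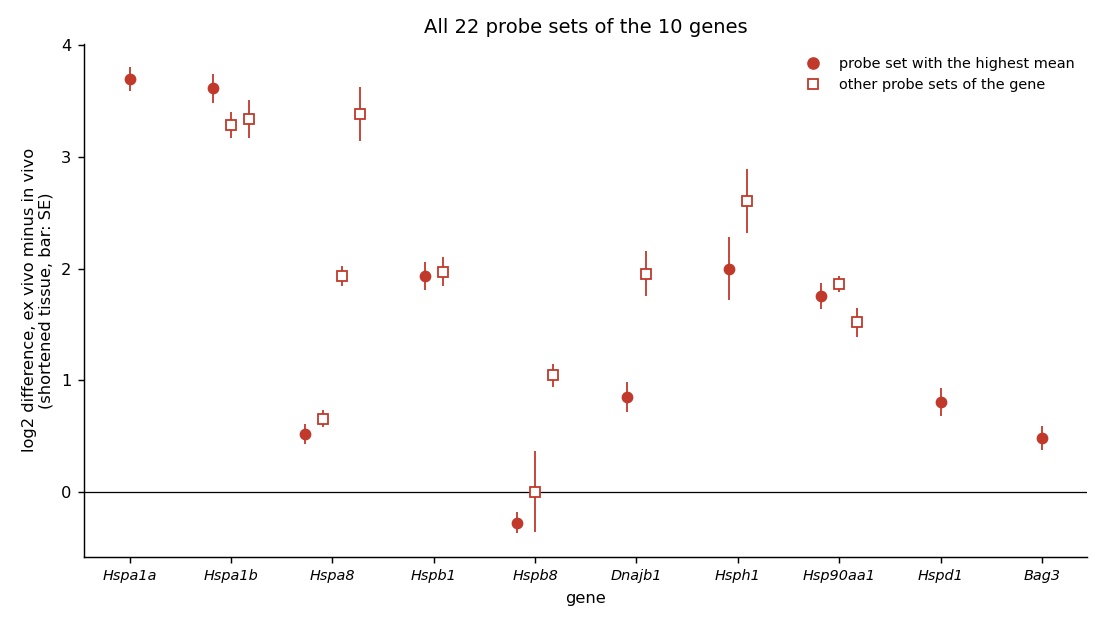
Log2 difference between ex vivo and in vivo shortened tissue (ex vivo minus in vivo, relative to sample medians, vertical axis) for all 22 probe sets of the 10 genes, with the SE as a bar. Filled circles mark the probe set with the highest mean and open squares the others. Those of Hspa8 range from 0.52 to 3.39, and those of Hspb8 lie on both sides of 0.

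Within animals, stretched and shortened tissue did not differ in any of the 10 chaperones by a call. In vivo, 0 of 22626 probe sets passed at an adjusted p under 0.05 (0%), and 4373 (19.3%) had an unadjusted p under 0.05, with Hspb1 and Hspd1 the 2 members among them. Hspb1 differed by 0.32 ± 0.13 between stretched and shortened tissue (SE, n = 7 pairs, limma adjusted p = 0.222) and was higher in 6 of 7 animals. Its differences in animals 1 to 7 were -0.33, 0.26, 0.85, 0.19, 0.90, 0.22 and 0.15 on the log2 scale, so animals 3 and 5 gave most of the mean and animal 1 went the other way. The second probe set of Hspb1 gave 0.40 ± 0.13 (adjusted p = 0.174). Muscle content of the stretched minus the shortened piece was -0.0433, 0.817, 1.69, -0.158, 5.29, 3.42 and 1.84 in animals 1 to 7. Animal 5 had the largest muscle difference and the largest Hspb1 difference. Animals 6 and 7 had more of a muscle difference than animal 3 and smaller Hspb1 differences. With muscle content as a covariate Hspb1 differed by 0.06 (adjusted p = 0.950). Hspd1 differed by 0.18 ± 0.06 (adjusted p = 0.181), with -0.10, 0.31, 0.35, 0.29, 0.34, 0.08 and 0.00 in animals 1 to 7, and by 0.14 with the covariate (adjusted p = 0.788).

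The mean differences of the other 8 members were near 0 in vivo. Dnajb1 differed by -0.01 (95% confidence interval -0.09 to 0.07), Hspa8 by -0.02 (-0.09 to 0.06) and Hspb8 by -0.03 (-0.13 to 0.07). Hspa1a differed by -0.03 (-0.18 to 0.13) and Hspa1b by -0.09 (-0.23 to 0.04), so the ends of both intervals lay far inside the differences between the settings. Hsph1 differed by 0.02 (-0.12 to 0.17), Hsp90aa1 by -0.08 (-0.20 to 0.04) and Bag3 by 0.09 (-0.05 to 0.24). The median over the 10 members was -0.01, as it was over all genes.

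For Dnajb1 and Hsph1, animals differed from each other more than the pieces of an animal did. In vivo animal 6 had the highest Hsph1 and Dnajb1 in both pieces, at 10.39 and 10.36 log2 in stretched and 10.35 and 10.45 in shortened tissue. In vivo animal 1 had the lowest Hspd1 and Bag3 in both, at 11.06 and 9.53 in stretched and 11.16 and 9.62 in shortened tissue. The SD of the 7 paired differences of Dnajb1 was 0.04, against 0.23 and 0.25 for the SD of its levels among stretched and shortened pieces. For Hsph1 these were 0.18, against 0.55 and 0.62.

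Ex vivo, 0 probe sets passed (0%), 2508 (11.1%) had an unadjusted p under 0.05, and no member was among them. Hspa1a differed by -0.40 ± 0.27 between stretched and shortened tissue (n = 4 pairs, 95% confidence interval -1.05 to 0.24, adjusted p = 0.621), with -0.29, -1.53, -0.05 and 0.26 in animals 1 to 4. Hspa1b differed by -0.20 ± 0.21 (adjusted p = 0.759), with -0.10, -1.10, 0.15 and 0.23. Both means rest on animal 2: without it Hspa1a differed by -0.03 and Hspa1b by 0.09. Hsph1 differed by -0.16 ± 0.15, with -0.12, -0.72, -0.05 and 0.26, and turned to 0.03 without that animal. Hspb1 differed by -0.11 ± 0.21 (0.01, -0.85, -0.23 and 0.64), and by 0.14 without it.

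In ex vivo animal 2, 9 of the 10 members were lower in the stretched piece, with a median of -0.39, where 46.4% of all probe sets were lower. In ex vivo animal 4, all 10 were higher, with a median of 0.26, where 44.5% of all probe sets were higher. The stretched piece of animal 4 had 5.00 more muscle content than its shortened piece, and that of animal 2 had 0.12 more. Animal 3, with 4.51 more muscle content in its stretched piece, had 3 members higher and 7 lower. The animals thus pulled in opposite directions, and the group means lay between them. Hsp90aa1 differed by -0.15 ± 0.19 (-0.83, -0.31, 0.30 and 0.23) and by 0.07 without animal 1, and Hspb8 by 0.07 ± 0.22 (0.15, -0.43, -0.37 and 0.93) and by -0.22 without animal 4. Hspd1 differed by 0.11 ± 0.10, Bag3 by 0.13 ± 0.09, Dnajb1 by -0.10 ± 0.09 and Hspa8 by -0.00 ± 0.06. The second probe set of Dnajb1 gave -0.51 ± 0.14 (adjusted p = 0.363).

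**Figure D4:**
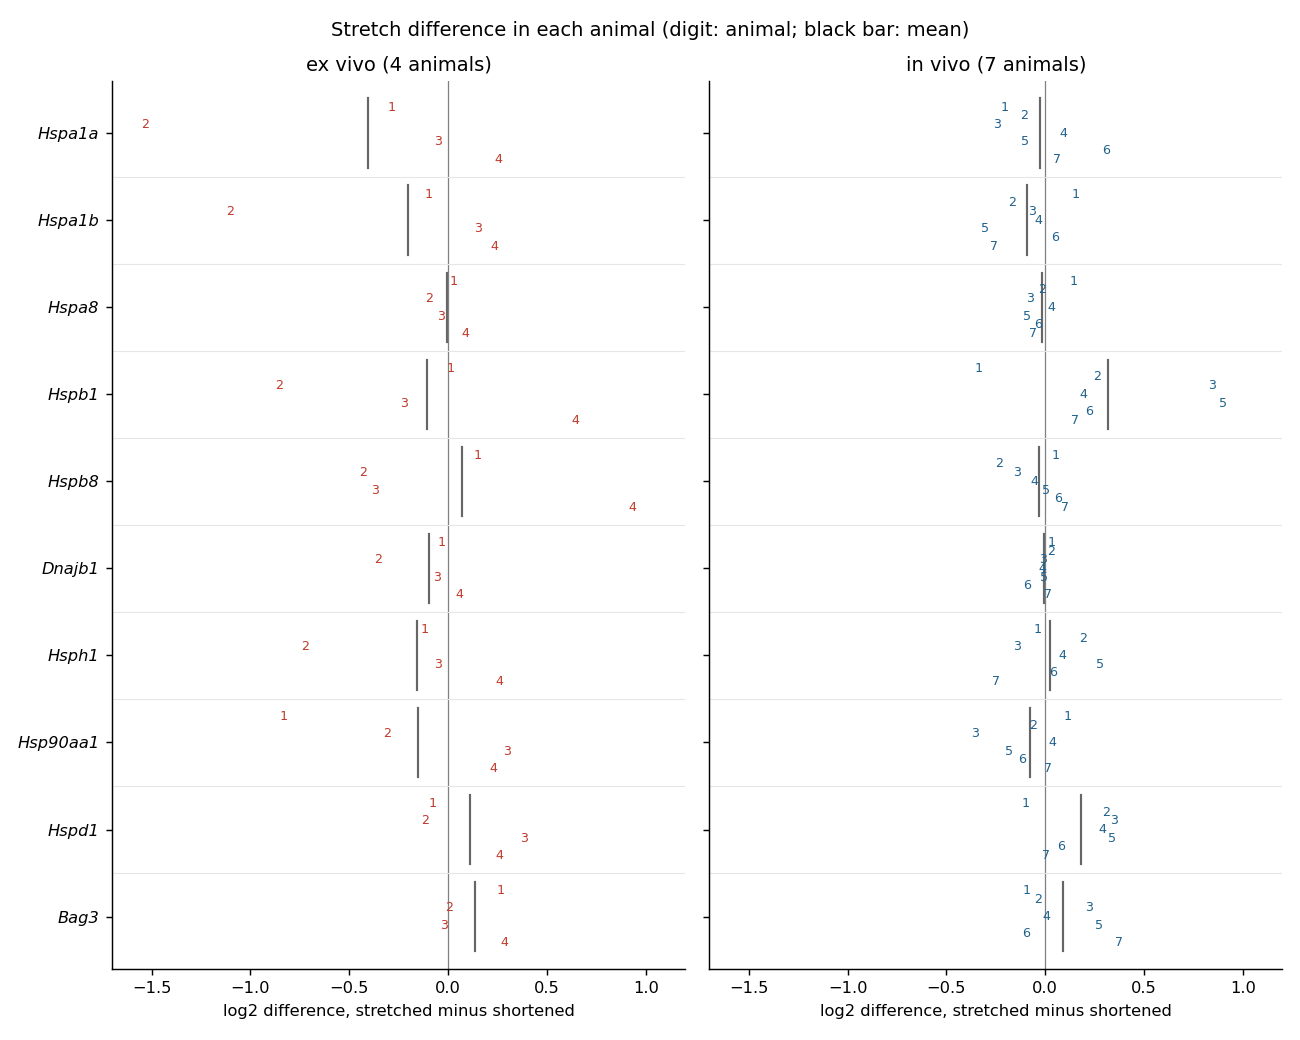
Log2 difference between the stretched and the shortened piece of each animal (horizontal axis) for the 10 chaperones, ex vivo (4 animals, left) and in vivo (7 animals, right), with the animal's number as the point and a bar for the mean. Ex vivo animal 2 stands apart at -1.53 for Hspa1a and -1.10 for Hspa1b, ex vivo animal 4 lies right of 0 for every gene, and the in vivo differences lie between -0.36 and 0.38 for every gene but Hspb1, which reaches 0.90.

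The stretch difference itself was compared between the settings, ex vivo minus in vivo, in 1 fit of all 22 samples. Of all probe sets 40 were called (0.177%), and 0 of the 10 members. At an unadjusted p under 0.05 there were 3460 probe sets (15.3%) and again 0 members. Hspb1 differed most, by -0.43 ± 0.26 (adjusted p = 0.475), followed by Hspa1a with -0.38 ± 0.26 (95% confidence interval -0.93 to 0.18, adjusted p = 0.525). Hspa8 had the narrowest interval, -0.12 to 0.14 around 0.01. After centring, both ex vivo means lay above both in vivo means for the 9 members called higher, and the stretched and shortened means of a setting were neighbours that did not differ by a call. As deposited, the Bag3 means interleaved, at 10.11 in ex vivo stretched, 9.97 in ex vivo shortened, 10.04 in in vivo stretched and 9.95 in in vivo shortened tissue.

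The wider chaperone network differed between settings in mixed directions. Of 67 other chaperone and co-chaperone genes measured out of 77 listed, 36 were called higher and 14 lower in ex vivo shortened tissue, and 17 were not called, with a median of 0.41, against -0.01 over all genes. Over all probe sets 36.9% were called higher and 29.6% lower. In stretched tissue 36 were called higher and 12 lower, with a median of 0.36, against 35.1% and 28.4% of all probe sets. As deposited the counts in shortened tissue were 20 higher and 25 lower, and in stretched tissue 14 and 24, so the balance of this list depends on the scaling, as did that of all probe sets (3943 higher and 12607 lower as deposited in shortened and 3719 and 12260 in stretched tissue). The factor Hsf1 and the constitutive Hsp90ab1 were not analysed here.

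Several chaperone genes differed by more than the median of the list in shortened tissue. Stip1, which bridges HSP70 and HSP90, differed by 1.76 ± 0.12 (adjusted p = 4.42e-08), and by 1.85 ± 0.15 in stretched tissue. Hspe1, the HSP10 lid of the chaperonin formed by Hspd1, differed by 1.22 ± 0.11 (adjusted p = 9.53e-07), and by 1.18 ± 0.12 in stretched tissue. Hspa9, the HSP70 of mitochondria, differed by 1.74 ± 0.17 (adjusted p = 1.32e-06), and by 1.08 ± 0.17 in stretched tissue. The cytosolic HSP110 protein gene Hspa4l differed by 1.21 ± 0.11, and 7 of 13 other J-domain genes were called higher and 3 lower, with Dnaja4 at 1.15 ± 0.14, Dnaja2 at 1.05 ± 0.11 and Dnajb6 at 0.98 ± 0.07. The 3 J-domain genes called lower, named after their values were seen, were Dnajc15 (-1.22 ± 0.24), Dnajc7 (-0.48 ± 0.13) and Dnajb5 (-0.27 ± 0.10). The genes given here as higher kept their calls as deposited in shortened tissue.

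Of the 12 measured genes of the TRiC chaperonin, which folds actin and tubulin, and of prefoldin, which delivers to it, 10 were called higher and 1 lower ex vivo in shortened tissue. Cct7 differed by 1.25 ± 0.07 and Vbp1 by 0.87 ± 0.11, and Pfdn5 by -0.74 ± 0.07 (adjusted p = 1.40e-06). The counts of this list were made after centring. Cct7 and Vbp1 kept their calls as deposited. The deposited means of Cct4 in shortened tissue were 11.42 ex vivo and 11.43 in vivo, and those of Cct2 were 11.28 and 11.63. Of 6 genes of the mitochondrial chaperonin and proteases 3 were called higher and 1 lower, with Htra2 at 1.56 ± 0.18 and Lonp1 at 0.93 ± 0.15. Of 13 HSP90 partners 4 were called higher and 3 lower, near the shares over all probe sets (36.9% and 29.6%), which the counts of these short lists are to be read against. St13, an HSP70 partner, differed by 0.73 ± 0.15, and Fkbp5, a partner of steroid receptors, by -1.26 ± 0.18 (adjusted p = 4.76e-05). Among 9 exchange factors and ubiquitin ligase partners 5 were called higher and 2 lower, with Bag2 at 1.42 ± 0.18, Grpel2 at 0.64 ± 0.11 and Bag5 at -0.78 ± 0.08. The call of St13 and that of Grpel2 were lost as deposited (0.27 with adjusted p = 0.0941, and 0.18 with adjusted p = 0.0992).

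The small heat shock proteins of striated muscle were split. Cryab differed by 1.08 ± 0.16 in ex vivo shortened tissue (adjusted p = 5.17e-05) and by 0.50 ± 0.18 in stretched tissue (adjusted p = 0.0257). Without the stretched piece of ex vivo animal 4 the stretched difference of Cryab was 0.29 (adjusted p = 0.0925), and without that of ex vivo animal 3 it was 0.51 (adjusted p = 0.0512). This call was also lost as deposited (0.057, adjusted p = 0.795), with quantile normalization (0.39, adjusted p = 0.0602), with the number in the title as a block (0.46, adjusted p = 0.0854) and against in vivo animals 1 to 3 (0.48, adjusted p = 0.141). Hspb3 was called lower (adjusted p = 0.00171), with deposited log2 signals of 3.69 to 3.91 in ex vivo and 4.60 to 6.49 in in vivo shortened tissue. The files used here hold no detection calls and the ex vivo signals lay far below the sample medians, so no size is given. Hspb2 differed by -0.48 ± 0.12 in shortened tissue (adjusted p = 0.00443), by -0.94 as deposited, and lost its call with the number in the title as a block (-0.41, adjusted p = 0.0661) and against in vivo animals 1 to 3 (-0.34, adjusted p = 0.0620). Hspa12b, an HSP70 relative of endothelial cells, differed by -1.72 ± 0.16 (adjusted p = 8.85e-07). Of 3 heat shock factors and regulators 2 were called higher in shortened tissue, Hsf4 by 1.63 ± 0.11 (adjusted p = 3.64e-08) and Hsf2. The Hsf4 signal was 5.60 to 5.88 log2 in ex vivo shortened and 4.42 to 4.83 in in vivo shortened tissue. It lay below every sample median, so the size of its difference is uncertain. The Hsf2 signal was 2.42 to 2.56 log2 in ex vivo shortened and 2.48 to 3.00 in in vivo shortened tissue, far below every sample median, and its sign turned to -0.07 with quantile normalization and -0.21 as deposited, so no size or direction is given for it. The skeletal muscle markers had a median difference of -1.60 in shortened and -1.29 in stretched tissue, and with muscle content as a covariate Cryab, Hspb2 and Hspb3 kept their direction and their calls in both tissue positions.

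**Figure D5:**
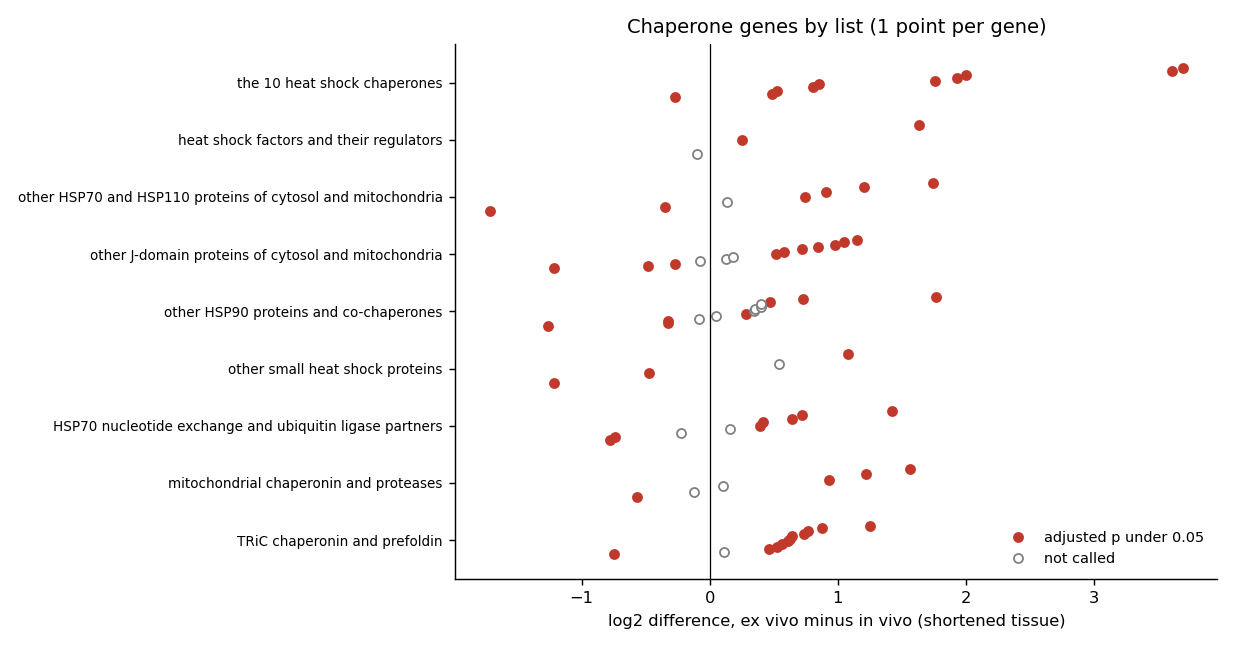
Log2 difference between ex vivo and in vivo shortened tissue (ex vivo minus in vivo, relative to sample medians, horizontal axis) of the 10 chaperones and of 67 other chaperone genes in 8 lists, with a point per gene. Filled points have an adjusted p under 0.05: 9 of the 10 members and 36 of the 67 others lie right of 0 among them.

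Stretch called none of the 67 other genes in either setting. Of the 67, 16 in vivo and 14 ex vivo had an unadjusted p under 0.05, as did 19.3% and 11.1% of all probe sets. In vivo the smallest adjusted p values, 0.172, belonged to Trap1, the HSP90 of mitochondria (0.37 ± 0.08), Grpel1, the exchange factor of mitochondrial HSP70 (0.22 ± 0.06), and St13 (0.17 ± 0.05). Hspb7, a small heat shock protein of striated muscle, differed by 1.09 ± 0.42 (adjusted p = 0.210), in a comparison where 20 of 21 skeletal muscle markers had higher means in stretched tissue by a median of 2.11. Ex vivo Hspa1l differed by 0.54 ± 0.14, Dnaja2 by -0.44 ± 0.11 and Hspbp1 by 0.36 ± 0.09 (adjusted p = 0.363 each), and Hspa9 by -0.44 ± 0.13 (adjusted p = 0.369). The Hspa1l signal was low, at 4.98 to 5.75 log2 in ex vivo stretched and 4.60 to 4.90 in ex vivo shortened tissue. It lay below every sample median. When all samples shared 1 estimate of the spread, Dnaja2 and Hspbp1 passed ex vivo (adjusted p = 0.0170 and 0.0365).

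The genes whose values followed each member most closely over the 22 samples, after the group means were removed, are given as a description by Pearson's r, since samples of an animal, RNA quality and muscle content are shared. Hspa1a followed Hspa1b with r of 0.83, then Stfa3 and Sele (0.75 and 0.74). Hspb8 followed the muscle transcription factors Myog (0.85) and Myod1 (0.82), and Il11 (0.79). Hspd1 followed Dlat (0.96), a subunit of mitochondrial pyruvate dehydrogenase, Psph (0.93) and the mitochondrial peroxidase Prdx3 (0.93). Hspb1 followed Fmc1 (0.86), Macrod1 (0.86) and Pdk2 (0.85), and its r with muscle content was 0.61. The closest genes were Polr1e for Hspa1b (0.89), Esrp2 for Hspa8 (0.88), Dntt for Dnajb1 (0.85), Cry1 for Hsph1 (0.92), Smad3 for Hsp90aa1 (0.91) and Ppp2r5a for Bag3 (0.91).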

How the data were processed

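RNA was extracted with Tri-Reagent and biotin-labelled cRNA was hybridised to 1-colour arrays, per the labels' protocols. The deposited log2 values are RMA signals per probe set (RMA and the affy package, per the submitters' processing notes; versions and genome build are not given in the sources used here). The 2 settings have different value distributions and may have been normalized separately. No sample pair held identical values.

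Of 22690 probe sets 64 controls were left out and 22626 were tested, of which 20380 carried a single gene symbol in the platform annotation, 691 several and 1555 none. Tests used limma 3.58.1 in R 4.3.3 (lmFit, eBayes with a mean-variance trend), two-sided, with Benjamini-Hochberg adjustment over all 22626 and a threshold of 0.05, and the step was tested on simulated data. Stretched and shortened tissue were compared within each setting on the deposited values with the animal as a block. The number in the title was taken as the animal, since the design is within animals. After group means were removed, same-numbered samples had r of 0.385 to 0.867 in vivo and 0.109 to 0.284 ex vivo. No r was computed for samples with different numbers, so these values do not test that reading. The difference in the stretch effect between settings was fitted over all samples with the same block. Ex vivo and in vivo tissue were compared per tissue position after each sample's median was subtracted. The same number in the 2 settings marks different animals. With 4 and 7 animals, their number limits the precision.

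The members and lists were chosen with earlier results of these data known. The other chaperones named are those called, at most the 3 with the smallest p per list and comparison, or, where none was called, at most 2 per list with the smallest p; a selection of them is printed. Likeness named the 3 genes with the highest r, or the first of them. Alternatives were quantile normalization, other centring, a minimum mean signal of 6, no trend, robust eBayes, 1 value per gene, no block, muscle content or Gapdh as covariates, subsets of animals and leaving out each replicate. Promoter windows came from RefSeq (GRCm38.p6).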

Additional observations from a re-analysis of the deposited data

Results flagged for a closer look

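Among the 40 groups of values (10 genes in 4 groups), 4 held a sample far from the others relative to the range of its group (Dixon's test at the 95% level), and chance alone flags about 1 in 20 groups. In in vivo shortened tissue, animal 1 was the lowest for Hspa1b, at 8.78 with the next sample at 9.16, and for Hspb8, at 10.84 with the next at 11.06. In in vivo stretched tissue, animal 1 was the lowest for Hspd1, at 11.06 with the next at 11.66. In ex vivo shortened tissue, animal 2 was the highest for Hsp90aa1, at 12.67 with the next at 12.35. These are deposited log2 signals, and leaving these samples out ended no call of these genes.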

How the results depend on the processing

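All 9 higher calls between ex vivo and in vivo tissue kept their direction under every alternative run. Hspa8, Bag3 and stretched Hspd1 lost theirs as deposited, without centring. As deposited, the other chaperones called were 20 higher and 25 lower in shortened and 14 higher and 24 lower in stretched tissue, Hsf2 turned to -0.21 and -0.18, and St13 in stretched tissue to -0.010. With quantile normalization Hsf2 in shortened tissue was -0.073. With the number in the title as a replicate block 9 other chaperones were lower in shortened tissue, and against only in vivo animals 1 to 3, 6 were lower in stretched tissue. With 1 value per gene, fewer features were tested and 8404 and 8075 were called in shortened and stretched tissue, and with a mean signal of at least 6, 9473 in stretched tissue.

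Stretch values near 0 changed sign often. In vivo, quantile normalization gave 0.0014 for Dnajb1. Muscle content as a covariate gave 0.039 for Hspa8, 0.011 for Dnajb1 and -0.036 for Hsph1, and without the pairs that differed most in muscle content these were 0.0043, 0.0094 and -0.031. In animals 1 to 3 Hspa8 was 0.017 and Dnajb1 0.016, and in animals 4 to 7 Hspa1a was 0.089 and Hspb8 0.027. Leaving out each animal gave -0.084 to 0.0075 for Hspa1a, -0.052 to 0.0032 for Hspb8, -0.013 to 0.0068 for Dnajb1 and -0.019 to 0.069 for Hsph1. Ex vivo, quantile normalization gave 0.020 for Hspa8, the muscle covariate -0.14 for Hspb8 and -0.082 for Hspd1, and leaving out the pairs -0.14 and -0.099. Leaving out each animal gave -0.35 to 0.095 for Hspa1b, -0.035 to 0.026 for Hspa8, -0.36 to 0.14 for Hspb1, -0.22 to 0.24 for Hspb8, -0.30 to 0.030 for Hsph1 and -0.30 to 0.073 for Hsp90aa1. With all samples in 1 fit 661 probe sets were called ex vivo, with 1 other chaperone higher and 1 lower.

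Pairing mattered in vivo: with no replicate block the adjusted p of Hspb1 and Hspd1 was 0.981 each. For the difference in stretch between settings, 5 probe sets were called with quantile normalization, 74 with a mean signal of at least 6, 4 with no trend, 3 with no replicate block, 11 with the muscle covariate and 9 without the pairs. Leaving out each animal gave 0 to 663 (663 without ex vivo animal 1, 331 without ex vivo animal 4), and 0 to 2 other chaperones lower. Hspa8 was -0.0057 with centred samples and -0.038 without the pairs, where Hspb8 was -0.084. Leaving out each animal gave -0.019 to 0.041 for Hspa8, -0.23 to 0.15 for Hsp90aa1, -0.0090 to 0.093 for Bag3, -0.26 to 0.19 for Hspa1b, -0.32 to 0.0068 for Hsph1, -0.16 to 0.0068 for Hspd1 and -0.19 to 0.27 for Hspb8. The causes were not tested.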
